A study of Mus musculus with 40 samples.

Results

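RGS proteins (regulators of G protein signalling) switch off heterotrimeric G proteins, and 5 of their genes, Rgs2, Rgs3, Rgs4, Rgs5 and Rgs16, were followed in mouse aorta during the early hours of angiotensin-II (Ang-II) infusion. They were taken by their symbol in each table. All 5 were listed among the 15399 genes of the CsA experiment, and 4 of the 5 among the 17402 genes of the genotype experiment, where Rgs16 was not listed. Together the tables listed 17809 genes. The genotype experiment compared Cn-Ctl mice (CnB1-flox, without the Myh11-CreERT2 transgene) with SM-Cn-/- mice (CnB1-flox, with Myh11-CreERT2). In the latter, tamoxifen removes the regulatory subunit of calcineurin (Cn) in cells that use the smooth muscle myosin promoter Myh11. The labels give the Cre-negative floxed genotype for all 10 Cn-Ctl libraries, whereas the study's methods also count Cre-positive mice without the floxed allele among its controls. Mice of both genotypes had received tamoxifen at 1 mg per day for 5 days, 6 weeks earlier, at 10 to 12 weeks of age. The study's methods state that its strains had been backcrossed to C57BL/6J. Aortas were taken from untreated mice or at 2, 6 or 24 h of an Ang-II infusion at 1 µg/kg/min from a minipump. The CsA experiment compared C57BL/6J mice given no pretreatment (WT) with C57BL/6J mice given cyclosporine A (CsA), an inhibitor of the phosphatase activity of Cn, for 5 days from a minipump at 5 mg/kg/day, either untreated or at 2 or 24 h of Ang-II infusion. WT mice carried no pump during those days, so CsA and its pump cannot be told apart. All mice were male. Ang-II-treated Cn-Ctl, WT and CsA mice were kept only if their systolic pressure exceeded 130 mmHg, whereas SM-Cn-/- mice were not selected in this way. Each library was a pool of 3 aortas stripped of adventitia and perivascular tissue. The p-values therefore measure the spread between pools. There were 3 libraries per group, except 2 each for untreated Cn-Ctl and for Cn-Ctl after 24 h. The study's methods state that 1 untreated Cn-Ctl replicate was discarded because it deviated from the other 2 in a principal component analysis. The spread of that group is therefore that of the libraries kept.

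Ang-II contracts and remodels the vessel wall through the AT1 receptor, which couples to Gq, G12/13 and Gi. An active Gα subunit carries GTP, and RGS proteins speed its hydrolysis and so shorten the signal. RGS2 acts preferentially on Gq, and mice that lack it are hypertensive. RGS5 is known as an abundant transcript of arterial smooth muscle cells (SMCs) and pericytes. RGS4 and RGS16 act on Gi and Gq and, like RGS5, are degraded through the Arg/N-degron pathway when their N-terminal cysteine is oxidised. RGS3 is a larger, multi-isoform member that acts on Gi and Gq. These statements are background and not results of the data.

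The unit is the deposited signal of a gene in a library, close to RPM (reads per 1e6 reads). In units of 1e6 assigned reads, the libraries held between 2.73 and 10.3 in the genotype experiment (median 6.52) and between 19.0 and 38.9 in the CsA experiment (median 22.8), so that members were counted more precisely in the latter. The 10 smooth muscle markers were read in every library, and their summed signal, 18101 to 52373, exceeded that of every other marker list in each of them. The signal of Ppp3r1, the floxed gene, ranged from 45.7 to 134 in Cn-Ctl and from 41.8 to 118 in SM-Cn-/-, and the mean difference of -0.23 on the log2 scale did not pass the test (limma, adjusted p = 0.470). The gene total therefore does not separate the genotypes, and the deleted part of the gene was not analysed here. The study checked CnB1 recombination by PCR on aortic tissue and removed SM-Cn-/- mice in which deletion was not established. Its immunoblots of SM-Cn-/- aortic extracts showed a loss of both Cn subunits.

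Rgs5 was by far the most abundant RGS transcript of the aorta. Levels of different genes are given per kb of exon, where the length is that of all annotated exons of a gene merged. Rgs5 averaged 284 per kb over the libraries of the genotype experiment, rank 91 of 14424 protein-coding genes, and 306 per kb in the CsA experiment, rank 78 of 13738. It accounted for 78.5% and 79.9% of the summed per-kb signal of the 15 numbered RGS genes in each experiment. Rgs4 followed with 36.7 and 38.2 per kb (ranks 1037 and 954), Rgs2 with 13.6 and 13.5 (ranks 2828 and 2846) and Rgs3 with 6.19 and 6.71 (ranks 5462 and 5290). Rgs16 was near the limit of detection, with 0.437 per kb in the CsA experiment (rank 12522). The order Rgs5, Rgs4, Rgs2, Rgs3 was the same in both experiments, for which the same exon lengths were used. The place of Rgs3 rests on its merged length of 10801 bases, against 3627 for Rgs2. Before this division its mean signal was higher than that of Rgs2 (66.9 against 49.3 in the genotype experiment, 72.4 against 49.0 in the CsA experiment).

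**Figure D1:**
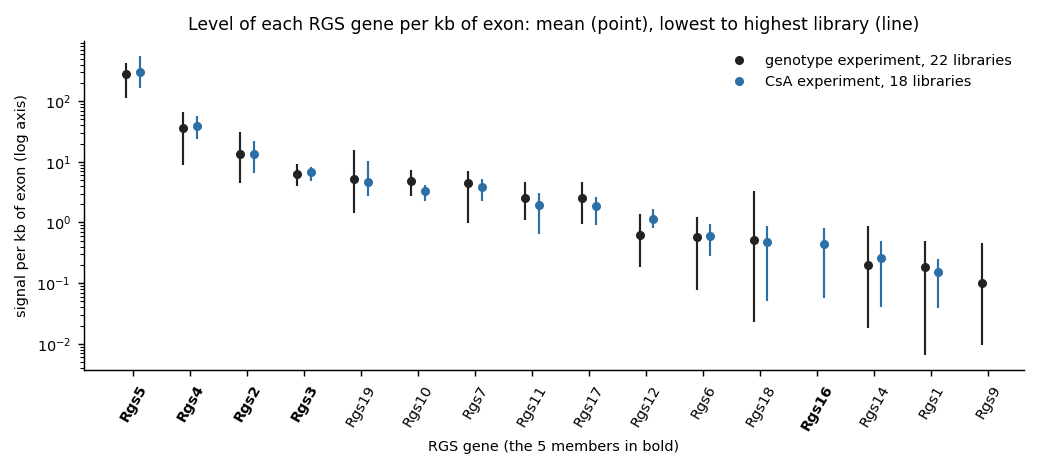
Signal per kb of exon (log axis) of each numbered RGS gene in the genotype experiment (22 libraries) and the CsA experiment (18 libraries). Points are means, lines run from the lowest to the highest library and the 5 genes studied are in bold; Rgs5 averaged 284 and 306 per kb, and Rgs16, drawn for the CsA experiment alone, 0.437.

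Of the genes, 4 lie on chromosome 1 (GRCm38). Rgs2 spans chr1:143999338-144004161 on the minus strand and Rgs16 chr1:153740349-153745468 on the plus strand. Rgs5 (chr1:169655501-169695813, plus strand) and Rgs4 (chr1:169741477-169747642, minus strand) are neighbours whose 3' ends face each other 45.7 kb apart. Rgs3 spans chr4:62559847-62704001 on the plus strand.

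**Figure D2:**
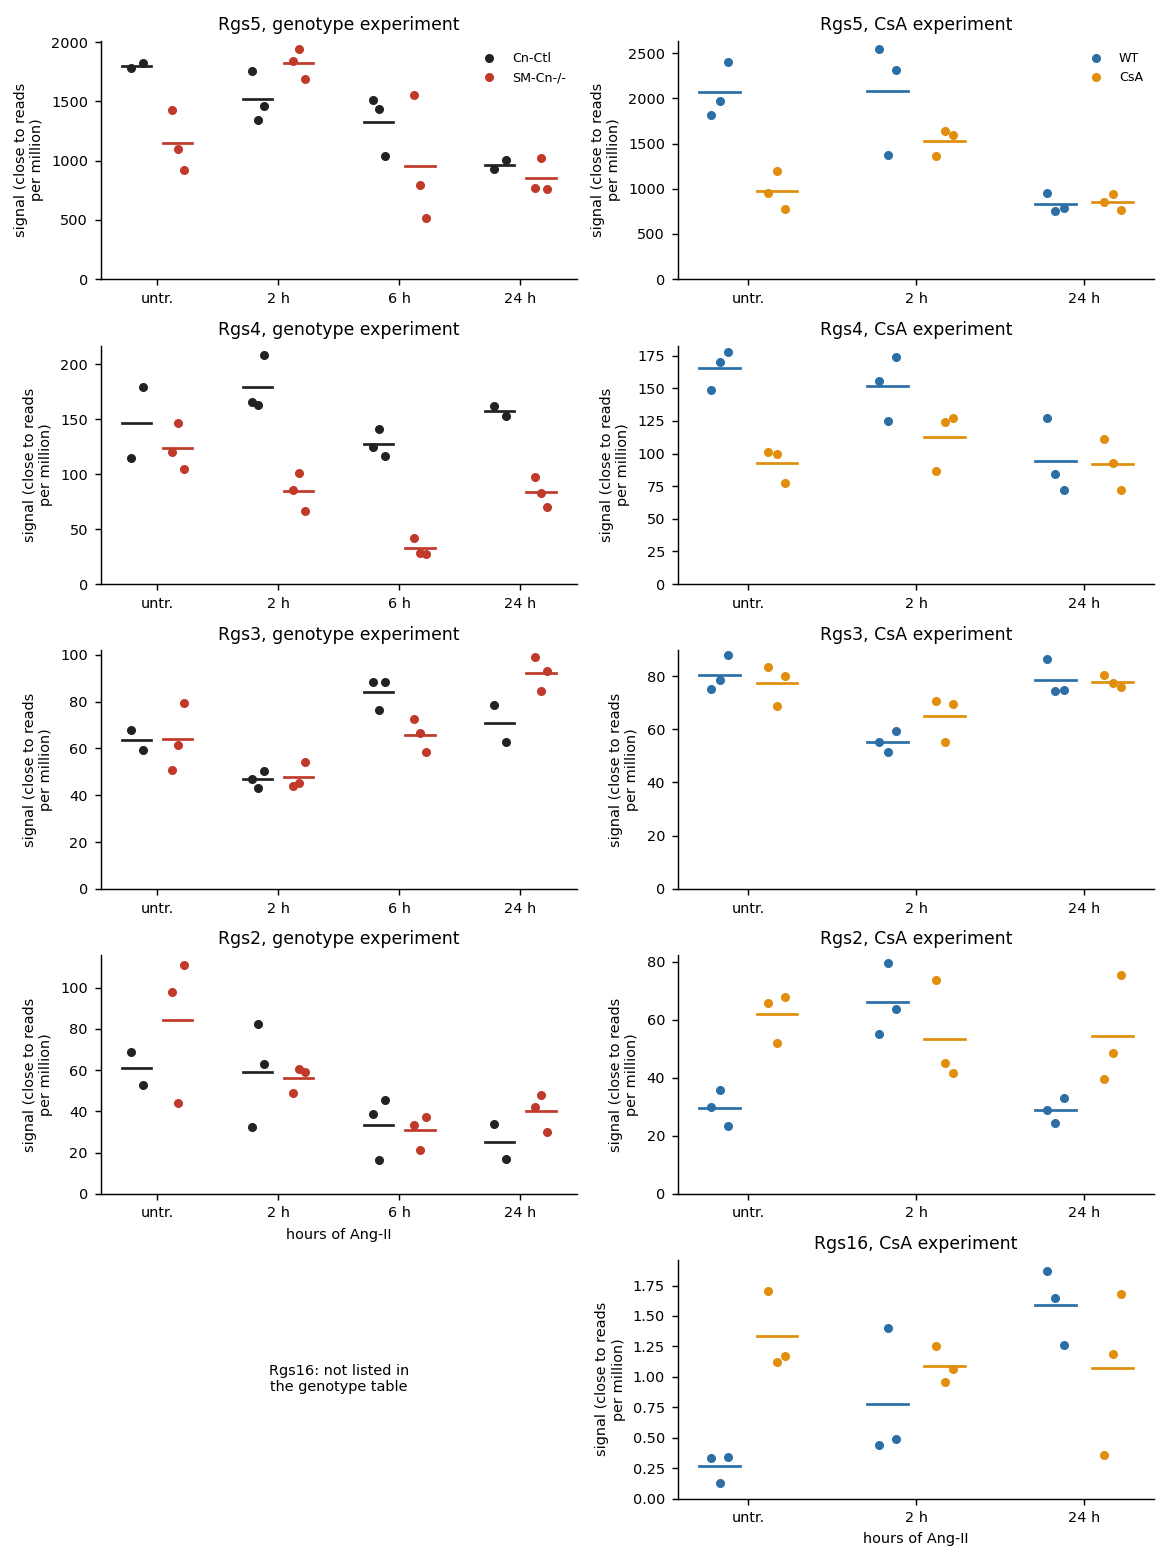
Signal (close to RPM, linear axis from 0) of each gene against hours of Ang-II, 1 point per library, with a bar at the group mean, for Cn-Ctl and SM-Cn-/- (left) and WT and CsA (right). Rgs4 lay between 27.2 and 42.0 in SM-Cn-/- at 6 h and between 116 and 141 in Cn-Ctl, and Rgs5 lay between 753 and 952 in WT at 24 h and between 1819 and 2406 in untreated WT.

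A gene was called changed at an adjusted p under 0.05 in limma, over all genes tested in that comparison. The counts of RGS genes called after Ang-II are given beside the share of all genes called, and with 4 genes a count of 0 is no result where that share is a few percent. In Cn-Ctl, 0 of 4 were called at 2, 6 and 24 h, where 6.23%, 3.97% and 5.62% of all genes were called. At an unadjusted p under 0.05 there were 1, 2 and 2, edgeR called 0 at each time, and DESeq2 called 0, 0 and 1 (Rgs5 at 24 h, adjusted p = 0.0493). In SM-Cn-/-, 0 of 4 were called at 2 h (3 at an unadjusted p under 0.05, 0 by edgeR and DESeq2; 1.13% of all genes), 1 of 4 at 6 h (2.34%) and 0 of 4 at 24 h (3 unadjusted, 0 by edgeR and DESeq2; 0.79%). The 1 gene was Rgs4. In the more deeply sequenced CsA experiment, where more of all genes were called, it was 2 of 5 in WT at 2 h (21.4% of all genes) and 3 of 5 at 24 h (35.0%). In CsA-pretreated mice it was 1 of 5 at 2 h (20.1%) and 0 of 5 at 24 h (0 at an unadjusted p under 0.05, 0 by edgeR and DESeq2; 8.98%). The plot of Ang-II responses shows each estimate with its interval.

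**Figure D3:**
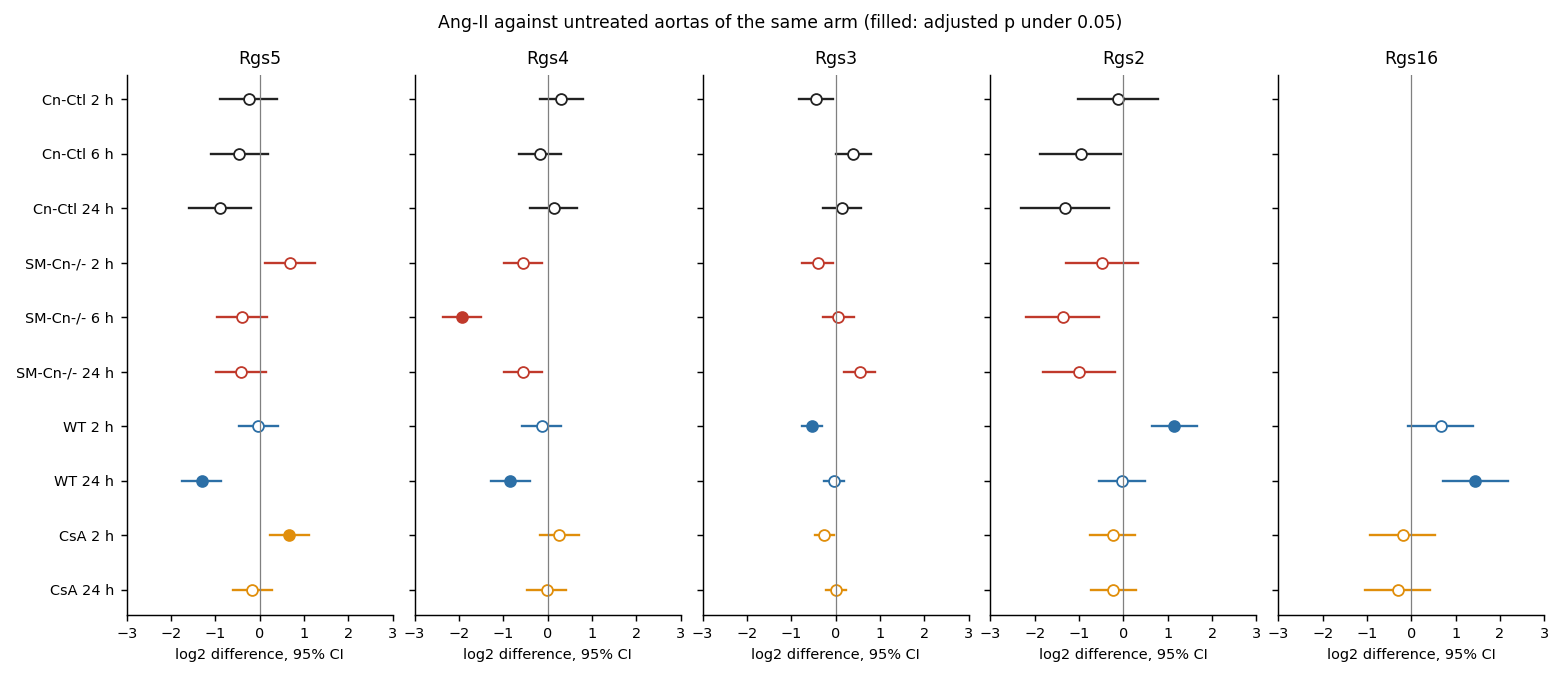
Log2 difference of each gene between Ang-II-treated and untreated aortas of the same arm, with 95% confidence intervals from limma and filled points at adjusted p under 0.05. The filled points are Rgs4 in SM-Cn-/- at 6 h (-1.93), Rgs3 (-0.54) and Rgs2 (1.15) in WT at 2 h, Rgs5 (-1.31), Rgs4 (-0.84) and Rgs16 (1.44) in WT at 24 h, and Rgs5 in CsA at 2 h (0.67).

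Rgs4 was the 1 gene of the 4 that differed between SM-Cn-/- and Cn-Ctl aortas, and it was lower in SM-Cn-/- at every time under Ang-II. In untreated Cn-Ctl the 2 libraries read 114 and 179, and in untreated SM-Cn-/- the 3 libraries read 120, 146 and 105. These groups overlapped (log2 difference -0.22 ± 0.23, SE, 95% interval -0.70 to 0.26, adjusted p = 0.983). After 2 h, Cn-Ctl read 166, 163 and 208 and SM-Cn-/- read 85.3, 101 and 66.5. The groups no longer overlapped, and SM-Cn-/- was 2.13-fold lower (log2 difference -1.09 ± 0.21, adjusted p = 0.00262). After 6 h, Cn-Ctl read 125, 141 and 116 and SM-Cn-/- read 42.0, 28.0 and 27.2, the lowest 3 values of Rgs4 in that experiment. SM-Cn-/- was 3.95-fold lower (-1.98 ± 0.21, adjusted p = 7.5e-06). After 24 h, Cn-Ctl read 161 and 153 and SM-Cn-/- read 97.6, 83.0 and 70.1, again without overlap (-0.92 ± 0.23, adjusted p = 0.0214). The call at 24 h was lost without SM-Cn-/- replicate 2 or 3 or Cn-Ctl replicate 2 or 3 of that time (log2 differences -0.92, -0.80, -0.88 and -0.96, adjusted p 0.0619, 0.0869, 0.0804 and 0.133).

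The percentages of all genes called between the genotypes were 0.0139% untreated, 3.7% at 2 h, 1.98% at 6 h and 4.94% at 24 h. Against these, 0, 1, 1 and 1 of the 4 RGS genes were called, Rgs4 each time (untreated: 1 at an unadjusted p under 0.05, 0 by edgeR and DESeq2). Over the mean of the 4 times 11.1% of genes were called, and 1 of the 4, again Rgs4, with a difference of -1.05 ± 0.11 (adjusted p = 1.2e-06).

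Within SM-Cn-/- mice, Rgs4 fell by 1.93 on the log2 scale between the untreated aorta and 6 h (SE 0.21, 3.81-fold, adjusted p = 1.4e-05). At 2 and 24 h it differed from untreated by -0.56 and -0.56 (adjusted p = 0.234 and 0.246). In Cn-Ctl the corresponding differences were 0.31, -0.17 and 0.14 at 2, 6 and 24 h (adjusted p = 0.526, 0.786 and 0.815). The difference between the genotypes in the response itself passed the test at 6 h (-1.76 ± 0.31, adjusted p = 0.0278). It was -0.87 at 2 h (adjusted p = 0.383) and -0.70 at 24 h (adjusted p = 0.438). For this test of responses 0.513% of all genes were called at 2 h, 0.0624% at 6 h and 0.513% at 24 h, against 0, 1 and 0 of the 4 RGS genes (2, 1 and 1 at an unadjusted p under 0.05; 0, 0 and 0 by edgeR and 0, 1 and 0 by DESeq2). With edgeR on the recovered reads the Rgs4 difference at 6 h was -1.69 (adjusted p = 0.0628).

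In bulk tissue, fewer cells of a type and less RNA per cell cannot be told apart, so the markers of cell types are given beside these results. The 10 smooth muscle markers summed to between 25735 and 31723 in SM-Cn-/- at 6 h and to between 35251 and 37084 in Cn-Ctl, and 0 of the 10 were called between the genotypes at that time in limma (1 at an unadjusted p under 0.05). Relative to this sum, Rgs4 stood at 1.13 ± 0.17 (SD, n = 3) per 1000 in SM-Cn-/- at 6 h and at 3.56 ± 0.43 in Cn-Ctl, so the groups still did not overlap (at most 1.32 and at least 3.14). At 2 h it stood at 2.80 ± 0.83 in SM-Cn-/- and 5.20 ± 1.49 in Cn-Ctl, without overlap (at most 3.57 and at least 4.27). At 24 h the ratios of the genotypes overlapped, at 2.63 to 3.27 in SM-Cn-/- and 3.08 and 5.21 in the 2 Cn-Ctl libraries, whose smooth muscle sums were 52373 and 29364 against 26626 to 29814 in SM-Cn-/-. The 6 pericyte markers summed to 805 to 997 in SM-Cn-/- and 857 to 1049 in Cn-Ctl at 6 h. The 10 endothelial markers summed to 742 to 923 in SM-Cn-/- and 344 to 597 in Cn-Ctl at 2 h (1 higher), to 662 to 1418 and 597 to 673 at 6 h, and to 1238 to 1286 and 537 to 558 at 24 h (4 higher). Their part in the Rgs4 differences was not tested.

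**Figure D4:**
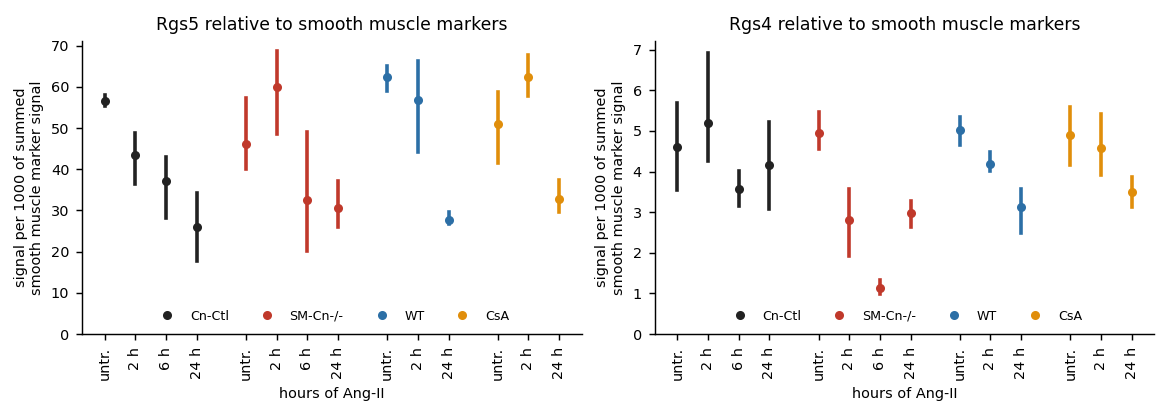
Signal of Rgs5 and Rgs4 per 1000 units of the summed signal of 10 smooth muscle markers (linear axis from 0) by arm and hours of Ang-II; points are means and lines run from the lowest to the highest library. Rgs4 stood at 1.13 in SM-Cn-/- at 6 h against 3.56 in Cn-Ctl, whereas untreated CsA and WT stood at 4.89 and 5.03.

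Rgs5 fell after 24 h of Ang-II in WT. Its signal was 1819, 1970 and 2406 in untreated WT, 2547, 1379 and 2315 after 2 h, and 952, 753 and 787 after 24 h. All 3 libraries at 24 h lay below all others of that arm, with a log2 difference of -1.31 ± 0.21 from untreated (2.48-fold lower, adjusted p = 0.000183), while 2 h and untreated overlapped (-0.03 ± 0.21, adjusted p = 0.944; 0.01 with edgeR, 0.02 with DESeq2 and -0.55 with quantile normalization, adjusted p = 0.0457). In Cn-Ctl, Rgs5 read 1782 and 1823 untreated, 1755, 1346 and 1466 after 2 h, 1513, 1438 and 1041 after 6 h, and 928 and 1004 after 24 h. The 24 h libraries did not overlap with the untreated ones, but the difference of -0.90 ± 0.33 did not pass (95% interval -1.60 to -0.21, adjusted p = 0.12; 0.0373 without SM-Cn-/- 6 h replicate 1, which enters the shared estimate of spread). SM-Cn-/- read 1430, 1102 and 926 untreated, 1843, 1941 and 1689 after 2 h, 1554, 792 and 518 after 6 h, and 772, 1019 and 765 after 24 h. The 3 libraries at 2 h stood above the others of the arm, and the difference from untreated was 0.68 ± 0.27 (adjusted p = 0.274). Between the genotypes, no time passed: the differences were -0.67, 0.27, -0.61 and -0.19 untreated and at 2, 6 and 24 h (adjusted p = 0.937, 0.746, 0.313 and 0.804). At 6 h, 1 library, SM-Cn-/- replicate 1 with 1554, stood apart from the other 2, and without it the difference between genotypes was -1.04 (adjusted p = 0.0141).

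Relative to the smooth muscle markers, Rgs5 in WT went from 62.4 ± 3.1 per 1000 untreated to 27.8 ± 1.6 after 24 h (SD, n = 3 each). In the 2 libraries each of Cn-Ctl it stood at 55.3 and 57.9 untreated and at 17.7 and 34.2 after 24 h. Of the 10 smooth muscle markers, 1 was higher and 4 lower in WT at 24 h than untreated, with a median log2 difference of -0.33 against 0.00 for all genes, and all 10 macrophage markers were higher (median 1.47), with sums of 320 to 464 against 119 to 174. The 6 pericyte markers summed to 1151 to 1168 in WT at 24 h and to 1306 to 1601 in untreated WT. For the 10 endothelial markers the sums were 754 to 900 and 429 to 722. The part of these markers in the fall of Rgs5 was not tested.

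In untreated aortas, 4 of the 5 genes differed between CsA-pretreated and WT mice: Rgs5 and Rgs4 were lower and Rgs2 and Rgs16 higher. In this comparison 25.2% of all genes were called. Rgs5 read 956, 1194 and 774 in untreated CsA against 1819 to 2406 in untreated WT (-1.10 ± 0.21, 2.14-fold lower, adjusted p = 0.00238). Rgs4 read 101, 99.7 and 77.8 in untreated CsA against 149, 170 and 178 in untreated WT (-0.84 ± 0.21, 1.79-fold lower, adjusted p = 0.00927). For both genes every CsA library lay below every WT library. Rgs2 read 65.7, 52.0 and 67.8 in untreated CsA against 29.9, 35.6 and 23.3 in WT (1.06 ± 0.24, 2.09-fold higher, adjusted p = 0.00583). Rgs16 read 1.71, 1.12 and 1.17 against 0.34, 0.13 and 0.34 (1.25 ± 0.35, adjusted p = 0.0163). Rgs3, at 83.4, 68.9 and 79.9 against 75.0, 78.6 and 87.8, overlapped (-0.06 ± 0.10, 95% interval -0.28 to 0.16, adjusted p = 0.713).

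**Figure D5:**
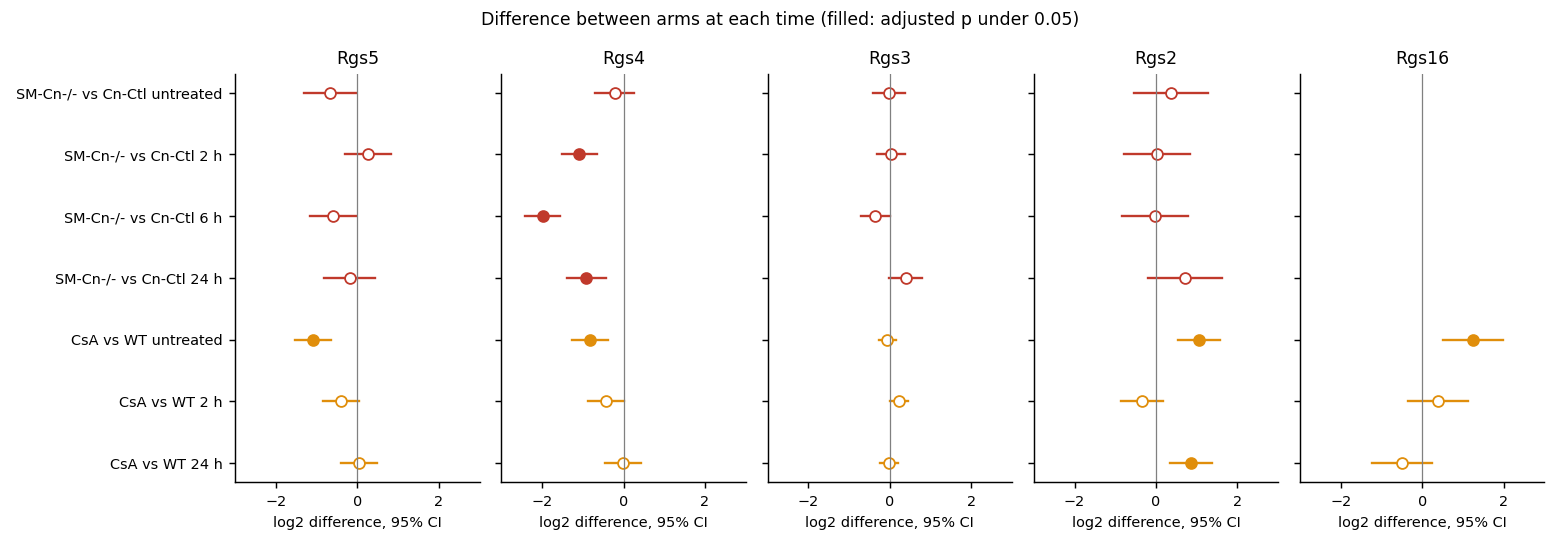
Log2 difference of each gene between SM-Cn-/- and Cn-Ctl and between CsA and WT at each time, with 95% confidence intervals from limma and filled points at adjusted p under 0.05. Rgs4 is filled at 2, 6 and 24 h between genotypes (-1.09, -1.98, -0.92), while Rgs5, Rgs4, Rgs2 and Rgs16 are filled between CsA and WT in untreated aortas (-1.10, -0.84, 1.06, 1.25).

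Cell type markers moved in the same untreated comparison. The 10 smooth muscle markers summed to 18101 to 20280 in CsA and to 27913 to 38206 in WT, and 9 of the 10 were lower. The 6 pericyte markers summed to 885 to 976 and 1306 to 1601 (3 lower), the 10 endothelial markers to 1142 to 1326 and 429 to 722 (10 higher), the 10 macrophage markers to 319 to 381 and 119 to 174 (9 higher), and the 8 adipose markers to 1177 to 2082 and 240 to 482 (7 higher). Of the other lists, 1 of 9 adventitial fibroblast and 1 of 6 nerve and glia markers were higher, and 0 of 5 blood, 0 of 3 lymphocyte and 0 of 6 skeletal and cardiac muscle markers tested were called in limma (0, 0 and 1 at an unadjusted p under 0.05). None of the 10 smooth muscle, 6 pericyte, 10 endothelial and 8 adipose markers was at 0 reads in any library of either experiment. Per 1000 of the smooth muscle sum, Rgs4 stood at 4.89 ± 0.71 in untreated CsA and 5.03 ± 0.35 in WT, so that these groups overlapped (4.16 to 5.59 and 4.65 to 5.34). Rgs5 stood at 51.0 ± 8.9 and 62.4 ± 3.1 (41.4 to 58.9 and 59.1 to 65.2). Rgs2 stood at 3.27 ± 0.62 and 0.916 ± 0.265. Rgs3, which overlapped in the signal itself, stood at 3.40 to 4.61 and 2.30 to 2.69. The smooth muscle sum was lower in untreated CsA, so the ratio raises every gene there relative to WT. The part of the marker differences in these results was not tested beyond these ratios.

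Fewer RGS genes were called between the CsA and WT arms after Ang-II, when fewer of all genes were called as well. At 2 h, 0 of the 5 were called (1 at an unadjusted p under 0.05, 0 by edgeR and DESeq2; 1.33% of all genes), and at 24 h 1 of 5, Rgs2 (5.58%). Rgs5 in CsA read 1361, 1640 and 1594 at 2 h and 857, 940 and 770 at 24 h. The 2 h libraries lay above the untreated ones of this arm (0.67 ± 0.21, adjusted p = 0.0334), a call that was lost without CsA untreated replicate 1 or 3 or CsA 2 h replicate 2 or 3 (log2 differences 0.67, 0.51, 0.62 and 0.64, adjusted p 0.0758, 0.145, 0.110 and 0.0770), and with quantile normalization (0.30, adjusted p = 0.280). The smooth muscle markers summed to 22020 to 28377 at 2 h against 18101 to 20280 untreated in this arm (3 of 10 higher). The macrophage markers summed to 178 to 203 against 319 to 381 (6 of 10 lower), and the 6 pericyte markers to 1046 to 1339 against 885 to 976. Per 1000 of the smooth muscle sum, Rgs5 stood at 57.8 to 67.8 at 2 h and 41.4 to 58.9 untreated, so that these groups overlapped. At 24 h CsA and WT overlapped (0.05 ± 0.21, 95% interval -0.40 to 0.49, adjusted p = 0.932). The difference between the arms in the 24 h response passed the test (1.14 ± 0.30, adjusted p = 0.0259). Per 1000 of the smooth muscle sum, Rgs5 in CsA was also lower at 24 h (29.7 to 37.3) than untreated (41.4 to 58.9), without overlap. So was Rgs4 (3.13 to 3.87 against 4.16 to 5.59). The arms' responses in these ratios were not tested. Rgs4 read 156, 125 and 174 in WT and 86.3, 124 and 127 in CsA at 2 h, and 127, 84.5 and 72.4 in WT and 112, 93.2 and 72.4 in CsA at 24 h. In WT it fell by 0.84 between untreated and 24 h (SE 0.21, adjusted p = 0.00533), in CsA the difference was -0.02 (adjusted p = 0.966), and the difference of these responses did not pass (0.82 ± 0.30, adjusted p = 0.0885), although it did without WT 24 h replicate 1 (1.05, adjusted p = 0.0270) or CsA 24 h replicate 3 (0.98, adjusted p = 0.0320).

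The differences in response between CsA and WT were called for 0.146% of all genes at 2 h and 9.42% at 24 h, and for 0 and 2 of the 5 RGS genes (2 and 3 at an unadjusted p under 0.05, 0 and 2 by edgeR, 1 and 2 by DESeq2). The 2 genes at 24 h were Rgs5 and Rgs16. On the mean of the 3 times, where 29.0% of all genes were called, 3 of 5 were called: Rgs2 (0.53 ± 0.14, adjusted p = 0.0104), Rgs5 (-0.48 ± 0.12, adjusted p = 0.00784; -0.26 and 0.0831 with quantile normalization) and Rgs4 (-0.43 ± 0.12, adjusted p = 0.0144).

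The 250 bases before the annotated start of the 4 genes that differed in untreated CsA aortas are printed 5' to 3' on the strand of the gene, from RefSeq on GRCm38.p6. Capitals mark matches on either strand to GGAAA (the core recognised by NFAT, the transcription factor that Cn activates), CCAAT and TATAAA.
Rgs2, chr1:144004150-144004399, minus strand: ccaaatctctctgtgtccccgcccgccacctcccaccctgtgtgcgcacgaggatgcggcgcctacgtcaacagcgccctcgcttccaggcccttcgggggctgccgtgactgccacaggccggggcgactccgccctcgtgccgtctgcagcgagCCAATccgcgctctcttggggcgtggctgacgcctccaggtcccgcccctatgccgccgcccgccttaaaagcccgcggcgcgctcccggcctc
Rgs4, chr1:169747643-169747892, minus strand: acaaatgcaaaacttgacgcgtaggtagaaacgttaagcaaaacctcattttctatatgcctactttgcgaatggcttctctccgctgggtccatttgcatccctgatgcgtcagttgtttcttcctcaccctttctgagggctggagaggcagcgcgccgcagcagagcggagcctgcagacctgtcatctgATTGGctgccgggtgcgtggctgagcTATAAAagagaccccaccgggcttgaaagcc
Rgs5, chr1:169655251-169655500, plus strand: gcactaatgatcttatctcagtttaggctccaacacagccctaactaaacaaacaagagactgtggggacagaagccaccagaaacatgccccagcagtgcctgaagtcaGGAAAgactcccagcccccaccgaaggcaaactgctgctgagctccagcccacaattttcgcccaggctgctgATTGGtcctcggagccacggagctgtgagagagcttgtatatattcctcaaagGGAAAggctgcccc
Rgs16, chr1:153740103-153740352, plus strand: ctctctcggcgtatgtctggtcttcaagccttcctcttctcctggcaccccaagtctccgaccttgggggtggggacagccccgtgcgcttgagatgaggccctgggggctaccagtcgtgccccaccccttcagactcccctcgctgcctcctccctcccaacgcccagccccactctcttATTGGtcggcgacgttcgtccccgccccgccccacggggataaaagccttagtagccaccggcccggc
Rgs5 held 2 matches to GGAAA, starting 140 and 14 bases before the start, and the other 3 held 0. GGAAA is found in 55.6% of all 32851 promoter windows of this length. Each of the 4 held 1 match to CCAAT, starting 94 (Rgs2), 57 (Rgs4), 67 (Rgs5) and 68 (Rgs16) bases before the start. CCAAT occurs in 33.8% of all windows. None of these matches overlapped another. Rgs4 held TATAAA 31 bases before the start (12.4% of all windows). The AP-1 motif TGANTCA, the CRE TGACGTCA and the CArG box, sought on both strands, were in none of the 4 (6.75%, 1.55% and 1.47% of all windows). CCAAT and TATAAA were added after the letters had been seen. Both windows of Rgs3, which was not called between untreated CsA and WT, lacked CCAAT and TGANTCA. Both held TATAAA, starting 100 bases before the start in one window and 177 in the other. The latter window also held GGAAA, starting 73 bases before the start. GGAAA and TATAAA were therefore not limited to the genes that differed. CCAAT was found in the 4 genes that differed and not in Rgs3. As it was sought after the letters had been seen, and 33.8% of all windows hold it, nothing is concluded from this.

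Rgs2 rose at 2 h of Ang-II in WT, and its 24 h libraries overlapped with the untreated ones. It read 29.9, 35.6 and 23.3 untreated, 55.0, 79.4 and 63.8 at 2 h, and 28.7, 24.2 and 33.1 at 24 h. The 2 h libraries lay above all the others (1.15 ± 0.24, 2.22-fold, adjusted p = 0.00294), and 24 h overlapped with untreated (-0.03 ± 0.24, adjusted p = 0.932). In CsA mice, Rgs2 read 65.7, 52.0 and 67.8 untreated, 73.7, 45.0 and 41.5 at 2 h, and 39.4, 48.4 and 75.3 at 24 h, and the 3 groups overlapped. Its untreated level in CsA overlapped with that of WT at 2 h. The responses of CsA and WT at 2 h differed by -1.40 ± 0.34, which did not pass in limma (adjusted p = 0.111) and passed in DESeq2 (-1.36, adjusted p = 0.0127) and without CsA 24 h replicate 3 (-1.40, adjusted p = 0.0418). At 24 h CsA was higher than WT without overlap (0.87 ± 0.24, adjusted p = 0.0475). This call was near the threshold: it was lost without any 1 of 12 of the 18 libraries (log2 difference 0.61 to 0.93 and adjusted p 0.0527 to 0.217), namely WT untreated replicates 1 and 2, CsA untreated replicates 1, 2 and 3, WT 2 h replicates 1 and 3, CsA 2 h replicate 2, WT 24 h replicates 1 and 2, and CsA 24 h replicates 2 and 3.

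In the genotype experiment no rise of Rgs2 was called at 2 h. The 95% interval in Cn-Ctl ended at 0.78, below the 1.15 of WT, but the interval in WT, 0.63 to 1.67, overlapped with that of Cn-Ctl. The SE of Rgs2 differences was 0.39 to 0.48, against 0.24 in the CsA experiment. The experiments were not tested against each other. Untreated Cn-Ctl read 69.0 and 52.7, and 2 h read 32.4, 82.2 and 62.9 (-0.13 ± 0.44, 95% interval -1.04 to 0.78, adjusted p = 0.927). At 6 h it read 38.8, 16.2 and 45.3 and at 24 h 33.9 and 16.7, below both untreated libraries (-0.97 and -1.32, adjusted p = 0.260 and 0.114). SM-Cn-/- read 98.2, 44.3 and 111 untreated, 49.1, 60.3 and 59.1 at 2 h, 33.6, 21.4 and 37.3 at 6 h, and 42.0, 48.0 and 29.9 at 24 h. The 6 h libraries lay below the untreated ones (-1.37 ± 0.39, adjusted p = 0.0635; DESeq2, -1.45, adjusted p = 0.00741). Without untreated replicate 2 of SM-Cn-/-, the 44.3, the limma difference was -1.78 (adjusted p = 0.0214), and without Cn-Ctl 6 h replicate 2 or 3 it stayed at -1.37 with adjusted p = 0.0391 and 0.0456. Between genotypes Rgs2 differed by 0.38, 0.02, -0.03 and 0.71 untreated and at 2, 6 and 24 h, and none passed (adjusted p = 0.985, 0.990, 0.983 and 0.420). With edgeR and DESeq2 the sign at 2 h was negative (-0.05 and -0.07).

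Rgs3 fell at 2 h of Ang-II in WT, and its 24 h libraries overlapped with the untreated ones. In WT it read 75.0, 78.6 and 87.8 untreated, 55.1, 51.6 and 59.3 at 2 h, and 86.2, 74.5 and 74.7 at 24 h. The 2 h libraries lay below all the others (-0.54 ± 0.10, 1.45-fold lower, adjusted p = 0.00158). The differences at 2 h in the other arms were -0.44 ± 0.19 in Cn-Ctl (adjusted p = 0.204), -0.40 ± 0.17 in SM-Cn-/- (adjusted p = 0.313) and -0.25 ± 0.10 in CsA (adjusted p = 0.0976), which did not pass. With quantile normalization that in CsA was -0.37 (adjusted p = 0.0203). Rgs3 read 47.0, 43.0 and 50.3 in Cn-Ctl and 44.1, 45.1 and 54.2 in SM-Cn-/- at 2 h, and these groups overlapped (0.03 ± 0.17, 95% interval -0.32 to 0.38, adjusted p = 0.968). The highest group means of the genotype experiment were 92.2 ± 7.4 in SM-Cn-/- at 24 h and 84.3 ± 6.8 in Cn-Ctl at 6 h (SD, n = 3 each), against 64.0 ± 14.3 and 63.7 ± 6.0 (n = 2) in the untreated groups. Neither passed (0.54, adjusted p = 0.155, and 0.40, adjusted p = 0.286).

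Rgs16 was read from 3 to 65 times per library, and its values rest on few reads. In untreated WT the 3 libraries held 8, 3 and 8 reads. At 2 h of Ang-II its signal was 0.44, 1.40 and 0.49 (0.66 ± 0.35, adjusted p = 0.205), and at 24 h 1.87, 1.65 and 1.26, above all untreated libraries (1.44 ± 0.35, adjusted p = 0.00423). The log2 differences were taken after adding 0.5 to the signal, which understates the change of so low a gene, whose mean signal was 0.270 ± 0.121 untreated and 1.59 ± 0.31 at 24 h (SD, n = 3). In CsA mice the signal was 1.25, 0.96 and 1.06 at 2 h and 0.36, 1.19 and 1.68 at 24 h, overlapping with the untreated 1.71, 1.12 and 1.17 (-0.19 and -0.31, adjusted p = 0.728 and 0.604; positive, 0.16 and 0.0027, with quantile normalization). The 24 h responses of CsA and WT differed by -1.75 ± 0.49 (adjusted p = 0.0357). The difference between untreated CsA and WT was lost without WT untreated replicate 2 or CsA untreated replicate 1 (1.11 for each, adjusted p = 0.0655 and 0.0624) and with quantile normalization (0.76, adjusted p = 0.0860).

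Ranked by mean signal, the group orders differed between the genes. For Rgs4 the 4 Cn-Ctl groups came first, from 179 ± 25 at 2 h to 127 ± 13 at 6 h (SD, n = 3 each), followed by SM-Cn-/- untreated (124 ± 21), 2 h (84.3 ± 17.3), 24 h (83.6 ± 13.8) and 6 h (32.4 ± 8.3). Neighbours overlapped except Cn-Ctl at 2 and 24 h, SM-Cn-/- untreated and 2 h, and SM-Cn-/- at 24 and 6 h. For Rgs5 in the same experiment, SM-Cn-/- at 2 h (1825 ± 127) and untreated Cn-Ctl (1803 ± 29, n = 2) led, and SM-Cn-/- at 24 h came last (852 ± 145). Its neighbours overlapped except untreated Cn-Ctl and Cn-Ctl at 2 h. For Rgs3 the neighbours that did not overlap were untreated Cn-Ctl and SM-Cn-/- at 2 h, and for Rgs2 SM-Cn-/- at 2 and at 24 h. In the CsA experiment Rgs5 ran from 2080 ± 618 in WT at 2 h through 1532 ± 150 in CsA at 2 h to 830 ± 106 in WT at 24 h, with CsA at 2 h separated from both its neighbours. Rgs2 fell into 2 sets, with WT at 2 h and all 3 CsA groups between 53.4 and 66.1 and untreated and 24 h WT at 29.6 ± 6.2 and 28.7 ± 4.4. For Rgs3 and Rgs4 all neighbours overlapped, and for Rgs16 only WT at 2 h and untreated WT did not.

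The other numbered RGS genes were at lower levels per kb than Rgs3, from 0.0994 (Rgs9) to 5.25 (Rgs19) in the genotype experiment and from 0.151 (Rgs1) to 4.67 (Rgs19) in the CsA experiment. Of 21 further genes (RGS genes, the RGS7-binding protein gene Rgs7bp and the Gα-binding Gpsm genes), 15 were tested there and 14 in the CsA experiment. At 2 h, 0 rose and 2 fell in Cn-Ctl (Gpsm2 and Rgs7bp; 6.23% of all genes called), 1 rose and 0 fell in SM-Cn-/- (Rgs17; 1.13%), and 0 rose and 1 fell in WT (Gpsm2; 21.4%), while 0 were called in CsA (2 at an unadjusted p under 0.05, 0 by edgeR and DESeq2; 20.1%). Gpsm2, which binds Gαi, fell at 2 h by 1.68 in Cn-Ctl and 1.27 in WT, and differed by -0.98 in SM-Cn-/- and -0.36 in CsA, which did not pass. Rgs7bp, a membrane anchor of the R7 RGS proteins, fell by 1.15 in Cn-Ctl and differed by 0.18, -0.57 and 0.24 in SM-Cn-/-, WT and CsA, which did not pass. For Gpsm2 and Rgs7bp the difference between the genotypes in the 2 h response did not pass (limma, adjusted p = 0.729 and 0.187). Neither did that between CsA and WT (adjusted p = 0.121 and 0.289). Rgs7bp was also lower in Cn-Ctl at 6 h (-1.52) and 24 h (-1.82) and in WT at 24 h (-1.58). Rgs17, which acts on Gi and Gz, was higher in SM-Cn-/- at 2 h (1.61) and 6 h (1.42). In WT at 24 h, where 35.0% of all genes were called, 4 of the 14 were higher (Rgs19, Rgs10, Gpsm3 and Rgs14: 1.14, 0.60, 0.94 and 1.02) and 6 lower (Gpsm2, Rgs7bp, Rgs11, Rgs6, Gpsm1 and Rgs7: -1.61, -1.58, -1.56, -0.77, -0.65 and -0.58), with a median of -0.43 against 0.00 over all genes tested. In untreated aortas, where 25.2% of all genes were called, 2 were lower in CsA than in WT (Gpsm2, -1.38, and Gpsm1, -0.47) and 3 higher (Gpsm3, 0.76, Rgs12, 0.52, and Rgs10, 0.42). Rgs19 at 24 h was lower in SM-Cn-/- than in Cn-Ctl (-2.00), and Rgs19, Rgs11 and Rgs12 differed from untreated in CsA at 24 h (0.70, -0.69 and -0.67).

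The remaining genes of the pathway were taken from lists of Gα subunits, receptors, receptor kinases and arrestins, effectors, cyclic nucleotide enzymes and N-degron enzymes, and are described at 2 h. All their counts stand against 6.23% (Cn-Ctl), 1.13% (SM-Cn-/-), 21.4% (WT) and 20.1% (CsA) of all genes called. Nothing particular to a list is read from them. A gene that passed in 1 arm and not in another is not thereby shown to differ between the arms. Of 12 Gα subunit genes, 0 were called in Cn-Ctl and SM-Cn-/- (1 and 2 at an unadjusted p under 0.05, 0 by edgeR and DESeq2; medians 0.06 and 0.21), 2 in WT (1 up, 1 down, median 0.05) and 1 in CsA (up, median 0.05). Gnai3 rose in WT and CsA (0.26 each; 0.22 in Cn-Ctl and 0.72 in SM-Cn-/-, not passing), and Gna11, a Gq-class subunit, fell in WT (-0.22; -0.25, -0.25 and -0.08 in Cn-Ctl, SM-Cn-/- and CsA, not passing). The median over all genes tested lay between -0.02 and 0.02 in these comparisons. Of 48 receptor genes, 44 were tested in the genotype experiment, where 1 rose and 1 fell in Cn-Ctl and 2 rose and 2 fell in SM-Cn-/-. In the CsA experiment 46 were tested, and 4 rose and 6 fell in WT and 3 rose and 9 fell in CsA (medians -0.03, 0.01, 0.08 and -0.16). P2ry2, a Gq-coupled nucleotide receptor, rose by 1.47 in Cn-Ctl, 0.66 in WT and 0.65 in CsA. In SM-Cn-/- it differed by 0.21, not passing. The difference between the genotypes in its 2 h response did not pass either (limma, -1.26, adjusted p = 0.364). The sphingosine-1-phosphate receptor gene S1pr1 rose in WT (1.04; 0.53, 0.94 and 0.22 in Cn-Ctl, SM-Cn-/- and CsA, not passing). Adra1d, an adrenergic receptor gene, fell in WT and CsA (-0.80 and -0.69; -0.89 and -0.71 in Cn-Ctl and SM-Cn-/-, not passing), and Calcrl fell in WT (-0.60; -0.42, -0.01 and -0.18, not passing).

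Of 10 receptor kinase and arrestin genes, 8 were tested, with 1 called in each genotype, 4 in WT and 3 after CsA (medians 0.03, -0.05, 0.01 and -0.05). Grk5, a receptor kinase, rose by 1.48 in Cn-Ctl and 0.71 in WT and differed by 0.48 and 0.04 in SM-Cn-/- and CsA, not passing. The difference in its 2 h response passed neither between the genotypes (limma, adjusted p = 0.289) nor between CsA and WT (adjusted p = 0.151). The arrestin-domain gene Arrdc3 rose by 2.27 in SM-Cn-/- and by 1.68 and 1.29 in WT and CsA (1.03 in Cn-Ctl, not passing). Arrb2 fell in WT and CsA (-0.85 and -0.66; -0.62 and -0.53 in Cn-Ctl and SM-Cn-/-, not passing), and Grk6 fell in WT (-0.30; -0.09, -0.04 and -0.07, not passing). In the order Cn-Ctl, SM-Cn-/-, WT, CsA, which holds for all medians given, 1, 0, 4 and 4 of 25 effectors of Gq and G12/13 were called (medians 0.00, 0.20, 0.15 and 0.14). In SM-Cn-/- 2 had an unadjusted p under 0.05, edgeR called 0 and DESeq2 1. Rock2, a serine/threonine kinase gene, rose in Cn-Ctl, WT and CsA (0.86, 0.66 and 0.81; 0.58 in SM-Cn-/-, not passing). Trpc1 rose in WT and CsA (0.37 and 0.66; 0.41 and 0.43, not passing), and in WT alone of the 4 tests Arhgef12 rose (0.57; 0.54, 0.25 and 0.40, not passing) and Plcb3 fell (-0.33; -0.28, -0.14 and -0.17, not passing). Of 25 cyclic nucleotide genes, 23 were tested and 2, 0, 6 and 5 called (medians -0.04, 0.07, -0.03 and 0.10). In SM-Cn-/- 6 had an unadjusted p under 0.05, edgeR called 0 and DESeq2 2. Pde4b, which degrades cAMP, rose by 1.49, 1.66 and 0.85 in Cn-Ctl, WT and CsA and differed by 0.04 in SM-Cn-/-, not passing. Gucy1a3, a subunit of the nitric oxide receptor, fell in the same 3 arms (-1.40, -0.98 and -0.53) and differed by -0.12 in SM-Cn-/-, not passing. Between the genotypes the difference in the 2 h response passed for Pde4b (limma, -1.45, adjusted p = 0.0115) and not for Gucy1a3 (1.27, adjusted p = 0.357). Between CsA and WT that of Pde4b did not pass (-0.81, adjusted p = 0.252). Crem rose in WT and CsA (1.01 and 0.43; 0.95 and 0.84 not passing), as did Pde3a (0.56 and 0.59; 0.55 and 0.87 not passing). Of 8 N-degron enzyme genes, through which RGS4, RGS5 and RGS16 are degraded, 0, 0, 4 and 3 were called (medians 0.06, 0.07, 0.10 and 0.13). In Cn-Ctl and SM-Cn-/- 2 and 0 had an unadjusted p under 0.05, and edgeR and DESeq2 called 0. Ubr4 rose in WT (0.60) and CsA (0.34), Metap2 rose in WT (0.21; 0.11 in CsA, not passing), and Ado, the cysteine dioxygenase of that pathway, fell in both (-0.32 and -0.26). In Cn-Ctl and SM-Cn-/- these 3 differed by 0.55 and 0.11, 0.21 and 0.14, and -0.04 and 0.02, not passing.

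Over the 14 group means, each centred on its experiment, the genes whose log2 pattern was most like that of each member among 13432 tested in both experiments were Eci3, Rfk and Acss2 for Rgs2 (Pearson's r 0.89, 0.88 and 0.88), Sh3bp1, Lrwd1 and Tmem94 for Rgs3 (0.94, 0.92 and 0.92), Fam98b, Armcx2 and Reep5 for Rgs4 (0.91, 0.89 and 0.87), and Htra1, Rbm26 and Pam for Rgs5 (0.97, 0.96 and 0.94). For Rgs16, over the 6 groups of the CsA experiment and 13738 genes, they were Plscr1, Nt5dc2 and Ppbp (0.99, 0.99 and 0.98). Among the members, Rgs4 and Rgs5 correlated at 0.55 and Rgs3 and Rgs5 at -0.56 over the 14 means. These are descriptions over group means that share libraries and treatments.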

How the data were processed

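Aortic RNA was measured by oligo-dT RNA-seq in 22 libraries of the genotype comparison and 18 of the CsA comparison. Per the submitters' processing notes, Bowtie 0.12.7, RSEM 1.16 and GRCm38 were used. The deposited values are a signal that the authors made as the reads of a gene plus 0.5, divided by the scaled library size. All values returned whole reads (tolerance 0.02). The 2 tables were normalized separately, and each test stayed within a table.

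Limma 3.58.1 was fitted to log2(signal + 0.5), with 1 mean per group and experiment, over protein-coding genes with a signal of at least 1 in at least 2 libraries. P-values were adjusted by Benjamini-Hochberg over 14424 or 13738 genes. The methods read here state no test for these comparisons. EdgeR 4.0.16 and DESeq2 1.42.0, run on recovered reads, were alternatives, beside other pseudocounts, filters, scalings and left-out libraries. The fit was tested on simulated data, where the changes were larger than most called here and genes as low as Rgs16 were left unchanged. That test does not cover smaller changes or Rgs16.

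The members and gene lists were chosen with earlier results of these data known. Named from each pathway list were the genes called at 2 h in Cn-Ctl or WT, at most 4 by lowest adjusted p, all called genes among the other RGS genes, and the 3 genes most like each member. 1 gene named by this rule is not reported here. The ratios to smooth muscle markers, and the CCAAT and TATAAA searches, were added after the values were seen. Depth sets counting error only.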

Additional observations from a re-analysis of the deposited data

Results flagged for a closer look

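In 3 cases the response of an RGS gene to Ang-II differed between the arms by a test of the difference itself. For Rgs4 the 6 h response of SM-Cn-/- differed from that of Cn-Ctl by -1.76 on the log2 scale (limma, adjusted p = 0.0278). It passed in DESeq2 (adjusted p = 0.000133) and missed the threshold in edgeR (-1.69, adjusted p = 0.0628), when only the groups compared were fitted (-1.76, adjusted p = 0.146), and without any 1 of 7 of the 22 libraries. These were SM-Cn-/- 6 h replicates 2 and 3 (-1.67 and -1.65), untreated SM-Cn-/- replicates 1 and 2 (-1.77 and -1.63), Cn-Ctl 6 h replicates 2 and 3 (-1.68 and -1.82) and untreated Cn-Ctl replicate 2 (-1.44), with adjusted p from 0.0580 to 0.435.

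For Rgs5 the 24 h responses of CsA and WT differed by 1.14 (adjusted p = 0.0259). The call was lost without untreated WT replicate 2 or 3 (1.17 and 1.03), untreated CsA replicate 3 (0.99), WT 24 h replicate 2 (1.07) or CsA 24 h replicate 1 or 2 (1.14 and 1.07), with adjusted p from 0.0523 to 0.0744. Per 1000 of the smooth muscle sum, Rgs5 at 24 h was lower than untreated in both arms (32.9 against 51.0 in CsA, 27.8 against 62.4 in WT).

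For Rgs16 the same comparison gave -1.75 (adjusted p = 0.0357), from 3 to 65 reads per library. It missed the threshold with quantile normalization (-1.29, adjusted p = 0.0740) and without any 1 of 10 of the 18 libraries, which were all 3 untreated WT and all 3 untreated CsA libraries, WT 24 h replicates 1 and 2 and CsA 24 h replicates 1 and 2 (-1.86 to -1.37, adjusted p from 0.0517 to 0.0899).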

How the results depend on the processing

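Of the log2 differences of the RGS genes recomputed under alternatives that kept all libraries, 1020 kept their direction and their side of the threshold, 12 changed sign, 6 came to pass and 12 no longer passed. With 1 library left out these numbers were 2018, 59, 10 and 45. The number of RGS genes called over the 3 times in Cn-Ctl went from 0 to 1 with DESeq2 (0 to 1 with 1 library left out) and in SM-Cn-/- from 1 to 2 with quantile normalization and with DESeq2 (1 to 2). In CsA over 2 times it went from 1 to 0 when only the groups compared were fitted and with the replicate block (0 to 1). Between the responses of the genotypes it went from 1 to 0 with edgeR and with only the groups compared (0 to 1), and between those of CsA and WT from 2 to 1 with a group mean of at least 5, where Rgs16 drops out, with quantile normalization and with the replicate block (0 to 4). The signs that turned belonged to differences that did not pass. They were, for Rgs3 between untreated genotypes, 0.040 with quantile normalization and 0.024 with DESeq2, for Rgs2 between genotypes at 2 h -0.049 with edgeR and -0.069 with DESeq2, for Rgs5 in WT at 2 h 0.0059 and 0.018, for Rgs16 in CsA 0.16 at 2 h and 0.0027 at 24 h with quantile normalization, for Rgs4 in CsA at 24 h 0.0082 with median-ratio scaling and 0.016 with DESeq2, and between CsA and WT at 24 h with quantile normalization 0.00088 for Rgs4 and 0.0044 for Rgs3. Of the calls near the threshold, Rgs2 between CsA and WT at 24 h (0.87) had adjusted p = 0.0509 over all genes listed, 0.127 with only the groups compared and 0.0745 with the block, and Rgs5 in CsA at 2 h (0.67) had 0.0578 and 0.0519 in the last 2. The causes were not tested.

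Leaving out 1 library at a time turned the sign of further differences that did not pass, over these ranges. In Cn-Ctl against untreated they were -0.41 to 0.25 (Rgs2, 2 h), -0.0084 to 0.63, -0.49 to 0.15 and -0.18 to 0.46 (Rgs4 at 2, 6 and 24 h) and -0.017 to 0.31 (Rgs3, 24 h), and in SM-Cn-/- -0.093 to 0.22 (Rgs3, 6 h). Between genotypes they were -0.54 to 0.10 (Rgs4) and -0.18 to 0.14 (Rgs3) untreated, -0.36 to 0.31 (Rgs2) and -0.064 to 0.083 (Rgs3) at 2 h, -0.48 to 0.25 (Rgs2, 6 h), -0.031 to 0.052 (Rgs3, mean of times), and, for the responses, -0.11 to 0.21 (Rgs3, 2 h), -0.37 to 0.43 (Rgs5, 6 h) and -0.17 to 0.83 (Rgs2, 24 h). In WT against untreated they were -0.20 to 0.24 (Rgs5, 2 h), -0.19 to 0.11 (Rgs2, 24 h) and -0.11 to 0.028 (Rgs3, 24 h), and in CsA at 24 h -0.59 to 0.078 (Rgs16), -0.17 to 0.14 (Rgs4) and -0.069 to 0.068 (Rgs3). Between CsA and WT they were -0.11 to 0.023 (Rgs3, untreated), and at 24 h -0.025 to 0.15 (Rgs5), -0.19 to 0.22 (Rgs4) and -0.045 to 0.060 (Rgs3), with -0.45 to 0.011 (Rgs2) and -0.032 to 0.12 (Rgs3) for the responses. Without SM-Cn-/- 6 h replicate 1 the mean genotype difference of Rgs5 was -0.41 (adjusted p = 0.020), and without CsA 24 h replicate 1 the mean CsA difference of Rgs16 was 0.51 (adjusted p = 0.0427).

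Quantile normalization moved the median of all genes between untreated CsA and WT from -0.02 to -0.11, the 1 shift over 0.1. Same-numbered libraries correlated at -0.37 to 0.34 (median 0.06, 27 of 71 over 0.1) in the genotype experiment and -0.39 to 0.38 (median -0.03, 11 of 45) in the CsA experiment. Correlations between libraries of different numbers are not given, so whether the replicate numbers mark shared batches was not settled. With the replicate block the calls over all genes and comparisons went from 6195 to 7084 and from 21458 to 19642, and Rgs16 in the 24 h response had adjusted p = 0.0542 (-1.75). Among the pathway lists at 2 h, 16 of 224 recomputed counts moved by over 1.5 times. Rgs16, at 3 to 65 reads, is the member most limited by depth.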
